A study of Mus musculus with 2 samples.

Results

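The genes Epcam, Krt7, Krt8, Krt18, Krt19, Cldn1, Cldn3, Cldn7, Cdh1 and Cdh2 encode the keratin filaments, tight junction claudins and adhesion proteins by which liver epithelial cells are usually recognised. They were taken by gene symbol, 10 of the 32285 genes in the count table, and each had 1 entry. For each gene it was asked whether its mRNA was found in hepatocytes as well as in bile duct cells (cholangiocytes), or in bile duct cells and not in hepatocytes. In these data, Krt8, Krt18, Cldn3, Cdh1 and Cdh2 mRNA was found in both cell types, for Cdh2 in the suffix 2 library mainly in bile duct cells that also held much Alb, and Epcam, Krt7, Krt19 and Cldn7 mRNA in the bile duct cells and not in the hepatocytes. Cldn1 mRNA was found in hepatocytes, and its low level in the bile duct cells passed the background in 1 of the 2 libraries.

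Single-cell RNA-seq of liver cells was performed on 1 sample labelled Cebp KO and 1 labelled Cebp WT, both from mice fed the NASH-promoting 40% HFCFD, a diet high in fat, cholesterol and fructose, for 2 weeks. Per the study's methods, the knockout removes Cebpa, a transcription factor gene, in hepatocytes by an Albumin-driven Cre acting on a floxed Cebpa allele, so bile duct and immune cells were not its target. Cells were released by perfusion and digestion of the liver and enriched on Percoll, and each sample used 1 capture lane of the 10x 3' v3.1 chemistry. Neither the age of the mice nor whether a sample was a pool of animals is stated in the labels. The table holds both libraries, told apart by a barcode suffix of 1 or 2, and no label ties a suffix to a genotype. They are therefore called the suffix 1 and suffix 2 libraries, no knockout was compared with wild type, and with 1 library of each kind no test was run.

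The suffix 1 library held 60048646 UMIs (unique molecular identifiers, each counting 1 captured mRNA molecule) in 17313 barcodes, and the suffix 2 library 52355243 UMIs in 15003 barcodes. Cells with at least 500 UMIs, at least 200 genes and at most 25% mitochondrial UMIs were kept, 11617 and 6088 cells. The median mitochondrial share per barcode was 4.07% in the suffix 1 library and 41.3% in the suffix 2 library, and 81 barcode sequences occurred in both (0.468% and 0.540% of barcodes). The hepatocytes described here are hepatocyte-like cells with at least 5000 UMIs, called deep, of which there were 699 (median 20811 UMIs) and 567 (median 12227 UMIs). A lower limit of 3000 UMIs would have taken 1209 and 901 cells. Cluster 9 held 490 of the deep cells of the suffix 1 library and cluster 11 held 353 of those of the suffix 2 library, so different clusters supplied most of the class in each. Cholangiocyte-like cells numbered 72 (median 15840 UMIs) and 28 (median 6312 UMIs), and 200 and 168 B-like cells served as the background, since B cells should lack most of these mRNAs. All 10 cholangiocyte markers used for naming, none of them among the 10 genes described, were detected in the cholangiocyte-like cells, at a summed 8857 and 12730 CPM (UMIs of a gene per 1000000 UMIs) against 936 and 1114 CPM in deep hepatocyte-like cells. Hepatocyte markers were also high in the cholangiocyte-like cells, 50133 and 46436 CPM against 71226 and 83557 CPM in deep hepatocyte-like cells and 27200 and 35455 CPM in B-like cells.

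Keratins form filaments only as pairs of a basic type, such as Krt7 and Krt8, and an acidic type, such as Krt18 and Krt19. Hepatocytes are known for the simple pair Krt8 and Krt18, while bile duct cells add Krt7 and Krt19. Claudins seal the tight junctions that keep bile in its channels. The cadherins Cdh1 (E-cadherin) and Cdh2 (N-cadherin) join neighbouring cells through catenins, and Epcam is an adhesion molecule of bile duct and progenitor cells.

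Positions are given on GRCm38. Krt7 (chr15:101411043-101430313, plus strand), Krt8 (chr15:101996698-102004482, minus strand) and Krt18 (chr15:102028180-102032027, plus strand) lie on 1 chromosome, with 566.4 kb between Krt7 and Krt8 and 23.7 kb between Krt8 and Krt18. Krt8 and Krt18 are transcribed away from each other, while Krt19 (chr11:100140810-100148665, minus strand), the other acidic keratin, is elsewhere. Epcam lies at chr17:87635979-87651129 (plus strand), Cldn1 at chr16:26356642-26371841 (minus strand), Cldn3 at chr5:134986214-134987472 (plus strand) and Cldn7 at chr11:69964779-69967885 (plus strand).

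The start regions of the hepatocyte keratin pair and of a pair of biliary-only genes are shown, because the keratins divide between the 2 placements. They run from 90 bases before the RefSeq start to the 10 bases from that start onward, 5′ to 3′ on the gene's strand, from RefSeq's GRCm38.p6. The RefSeq start of Epcam is the GENCODE gene start, while those of Krt8, Krt18 and Krt7 lie downstream of it, within the gene spans given above. Capitals mark TATAA in Krt8 and Krt18 and GGGCGG in Krt7 and Epcam, on either strand.
Krt8 (chr15:102004333-102004432, minus strand): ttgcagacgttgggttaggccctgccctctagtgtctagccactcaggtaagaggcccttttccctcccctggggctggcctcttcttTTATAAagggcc
Krt18 (chr15:102028126-102028225, plus strand): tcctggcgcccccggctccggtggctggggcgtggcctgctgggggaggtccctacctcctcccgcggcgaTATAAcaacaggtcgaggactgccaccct
Krt7 (chr15:101412313-101412412, plus strand): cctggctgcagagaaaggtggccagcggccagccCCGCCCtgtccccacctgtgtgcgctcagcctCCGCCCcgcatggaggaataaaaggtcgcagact
Epcam (chr17:87635889-87635988, plus strand): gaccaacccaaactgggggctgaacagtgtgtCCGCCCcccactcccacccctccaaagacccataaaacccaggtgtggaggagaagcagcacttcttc

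Start regions of 300 bases were held for 7 of the 10 genes, in 8 entries since Cldn7 has 2. TATAA, the core of the TATA box, occurred in Krt8 (2 overlapping matches, 1 on each strand, across the RefSeq start) and in Krt18 (1 match, beginning 19 bases before the RefSeq start and after the GENCODE one), and in none of the other 6 entries. It occurred in 24.9% of all 32851 start regions of that length. GGGCGG, the GC box, occurred 4 times in Krt7, 2 times in Cldn1 and 1 time each in Cldn3, Epcam and 1 of the 2 Cldn7 entries, and in neither Krt8 nor Krt18, with 35.7% of all start regions holding it. It was thus found in shared and in biliary-only genes. CCAAT (37.4% of all start regions) and TTGCNNAA, a form of the C/EBP site (10.8%), had no match in any of the 8 entries. These are matches of letters in short windows and no factor's binding was measured.

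A gene was placed as shared when its level lay above that of B-like cells in both classes, in CPM and in UMIs per cell, with exact Poisson 95% intervals that did not overlap, and when the classes were less than 10 times apart in CPM. It was placed as biliary only when it passed in cholangiocyte-like cells alone and was at least 10 times higher there, and as biliary rich when it passed in both and was at least 10 times higher there. In the suffix 1 library 6 genes were shared, against 9.51% of the 13043 genes with at least 10 UMIs, and in the suffix 2 library 5 were shared, against 5.55% of 11722. In both libraries the same 4 genes were biliary only, against 3.79% and 3.36% of the genes tested. The call of Cldn1 in the suffix 1 library was marginal, with 20 UMIs in 15 cholangiocyte-like cells, and was lost when the 1 cell with most of its UMIs was left out of each class or without the cholangiocyte-like cells rich in Alb. In the suffix 1 library the call of Cldn1 and the biliary-only call of Krt7 were lost with a mitochondrial limit of 10%. They were also lost with both classes limited to over 10000 CPM of Malat1. None was biliary rich, a placement that took 0.0843% and 0.196% of the genes tested. The genes were chosen as epithelial genes, so these shares are given as background. All intervals cover counting error only and not the spread between animals.

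**Figure D1:**
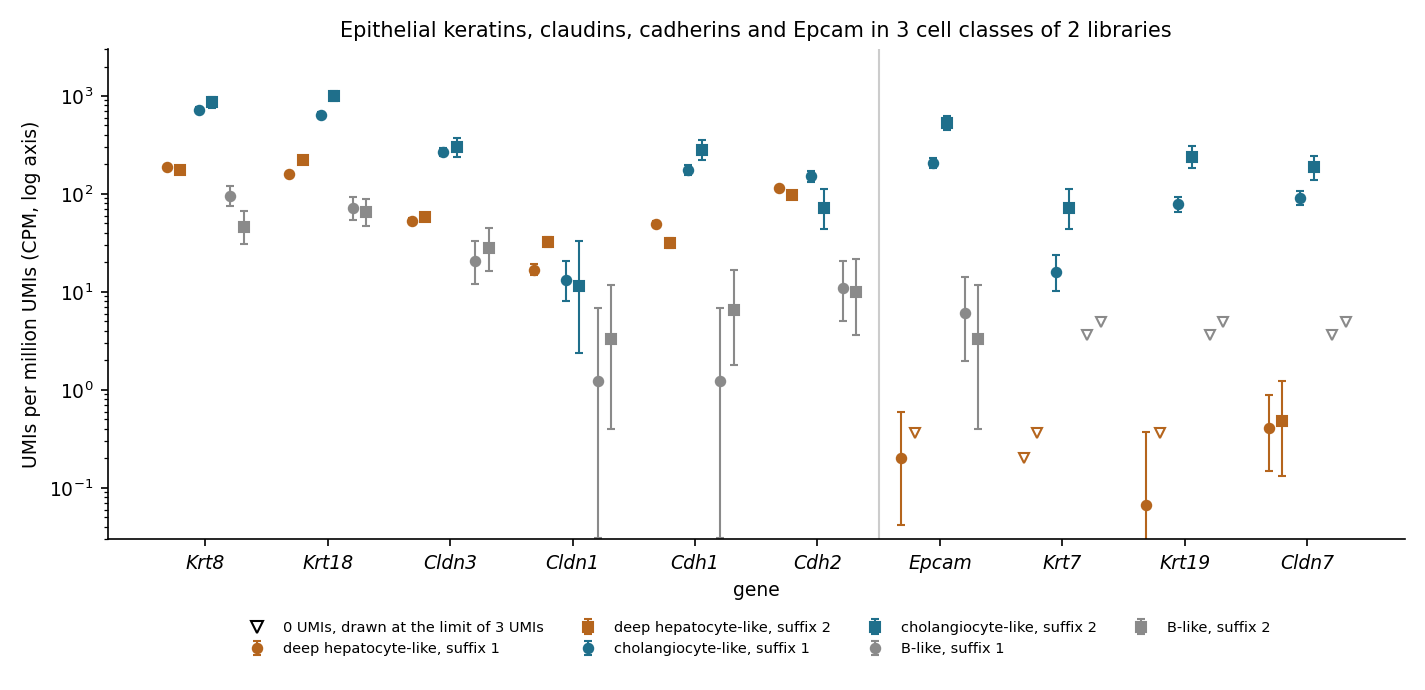
Level of each of the 10 genes (CPM, log axis, with exact Poisson 95% intervals) in deep hepatocyte-like, cholangiocyte-like and B-like cells of the suffix 1 and suffix 2 libraries, with open triangles for 0 UMIs, drawn at the limit of 3 UMIs. Epcam, Krt7, Krt19 and Cldn7 sit at or below 0.483 CPM in deep hepatocyte-like cells and at 15.97 CPM or more in cholangiocyte-like cells, while the other 6 genes lie within 10 times of each other in the 2 classes.

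The shared keratins gave the most UMIs of the 10 mRNAs in both classes. Krt8, the basic partner, measured 189.9 CPM (95% interval 183 to 197) in deep hepatocyte-like cells of the suffix 1 library and 174 CPM (165 to 183) in the suffix 2 library. In cholangiocyte-like cells it measured 723 CPM (681 to 768) and 861 CPM (753 to 981), which is 3.81 times (3.55 to 4.09) and 4.95 times (4.28 to 5.70) higher. Such sums weigh cells by their UMIs, so bile duct cells rich in Alb, described below, weigh more in the suffix 1 library. Krt18, the acidic partner, measured 161 CPM (155 to 168) and 220.4 CPM (210.4 to 231) in deep hepatocyte-like cells and 639 CPM (599 to 681) and 1002 CPM (885 to 1131) in cholangiocyte-like cells. Its ratio between the classes was 3.97 (3.68 to 4.28) and 4.55 (3.98 to 5.18), so both partners were about equally enriched in the bile duct cells. Both were found together in 77.0% and 69.0% of deep hepatocyte-like cells and in 90.3% and 71.4% of cholangiocyte-like cells, against 9.0% and 4.17% of B-like cells. The median depth of the B-like cells was 3505 and 3016 UMIs, below that of either epithelial class. Among cells with over 10000 CPM of the nuclear RNA Malat1, the shared call was lost for Krt8 in both libraries and for Krt18 in the suffix 1 library.

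B-like cells gave the background under these values. Free RNA from broken cells and doublets can both place hepatocyte mRNA in them, and their parts were not tested. In CPM, Alb, an abundant hepatocyte mRNA, stood in B-like cells at 35.9% and 39.9% of its level in deep hepatocyte-like cells. In UMIs per cell Alb lay further apart, at 54.1 and 58.6 in the shallower B-like cells against 779 and 593. The shares that follow are also of CPM, and are not shares of the UMIs of a hepatocyte. Krt8 stood at 50.7% (40.0 to 63.4) and 26.5% (17.5 to 38.4) of its hepatocyte level, Krt18 at 44.7% and 29.9%, and Cldn3 at 38.9% and 48.0%. The background of these 3 mRNAs thus lay around that of Alb, above it for Krt8 in the suffix 1 library and below it for Krt8 in the suffix 2 library. Cdh2 stood at 9.53% and 10.1%, Cldn1 at 7.24% and 10.2%, and Cdh1 at 2.47% and 20.7%, with intervals that lay below the share of Alb except for Cldn1 in the suffix 1 library and Cdh1 in the suffix 2 library.

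At an equal depth of 1000 UMIs per cell, Krt8 was seen in 17.0% and 19.2% of deep hepatocyte-like cells (87.8% and 79.9% before thinning), in 44.4% and 53.6% of cholangiocyte-like cells and in 8.04% and 3.59% of B-like cells. Krt18 was seen in 15.7% and 21.2%, in 40.3% and 53.6%, and in 3.52% and 4.19% of the same classes (83.4% and 82.7% of deep hepatocyte-like cells before thinning). Before thinning, cholangiocyte-like cells held Krt8 in 95.8% and 75.0% and Krt18 in 94.4% and 82.1%. In the suffix 2 library the shares of the 2 epithelial classes were thus close before thinning, and that of cholangiocyte-like cells was higher at equal depth. Cldn3 was seen in 3.58% and 6.88% of thinned deep hepatocyte-like cells, close to the 2.51% and 4.79% of B-like cells, and in 23.6% and 21.4% of cholangiocyte-like cells. Cdh2 was seen in 11.9% and 9.52% of thinned deep hepatocyte-like cells, in 11.1% and 10.7% of cholangiocyte-like cells and in 2.01% and 1.20% of B-like cells. For this gene the intervals of the thinned shares of the epithelial classes overlapped in both libraries.

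Cldn3, a claudin of simple epithelia, gave the most UMIs of the 3 claudins in both classes. It measured 53.2 CPM (49.6 to 57.1) and 58.3 CPM (53.2 to 63.7) in deep hepatocyte-like cells, and 268 CPM (242 to 295) and 301 CPM (238 to 375) in cholangiocyte-like cells. The ratio of 5.03 (4.45 to 5.68) and 5.16 (4.02 to 6.56) was the steadiest of the 10 between libraries. Its shared call ended in the suffix 1 library with a mitochondrial limit of 10%, where it was unplaced. B-like cells held 20.7 and 28.0 CPM.

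Cldn1, a sealing claudin, was the only one of the 10 genes that was not higher in the bile duct cells of either library. It measured 16.8 CPM (14.8 to 19.1) and 32.4 CPM (28.6 to 36.5) in deep hepatocyte-like cells, from 250 and 268 UMIs. In cholangiocyte-like cells it measured 13.3 CPM (8.13 to 20.6; 20 UMIs) and 11.4 CPM (2.36 to 33.4; 3 UMIs). The ratio of cholangiocyte-like to deep hepatocyte-like cells was 0.790 (0.475 to 1.25) and 0.353 (0.0724 to 1.04), with both intervals reaching 1. With 3 UMIs in the suffix 2 library, its level in bile duct cells could not be told from that of B-like cells, and it was left unplaced.

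The cadherins differed in how far they were enriched in bile duct cells. Cdh1 (chr8:106603351-106670246, plus strand) and Cdh2 (chr18:16588877-16809246, minus strand) are the long genes of the group, with spans of 66.9 kb and 220.4 kb, of which 6.84% and 3.66% are exonic, while Cldn3 spans 1.26 kb and is 100% exonic. Cdh1 measured 49.3 CPM (45.8 to 53.0) and 31.7 CPM (28.0 to 35.8) in deep hepatocyte-like cells against 175 CPM (155 to 198) and 282 CPM (221 to 354) in cholangiocyte-like cells, a ratio of 3.55 (3.07 to 4.09) and 8.88 (6.77 to 11.5). Cdh2 measured 115 CPM (109.7 to 121) and 98.0 CPM (91.4 to 105) in deep hepatocyte-like cells against 152 CPM (133 to 173) and 72.4 CPM (43.6 to 113) in cholangiocyte-like cells, a ratio of 1.32 (1.15 to 1.52) and 0.739 (0.442 to 1.16). With a mitochondrial limit of 10% the hepatocyte call of Cdh1 ended in both libraries, as did that of Cdh2 in the suffix 1 library, and Cdh2 was unplaced in the suffix 2 library. In that library 12 of the 19 Cdh2 UMIs of the bile duct class came from its 4 cells rich in Alb, and the bile duct call of Cdh2 ended without them. Cdh2 UMIs thus exceeded Cdh1 UMIs in deep hepatocyte-like cells of both libraries, while in cholangiocyte-like cells Cdh1 was higher in both, with intervals that overlapped in the suffix 1 library and lay apart in the suffix 2 library. UMIs are not divided by gene length, and reads from introns of so long a gene, if counted, would add to Cdh2. Among single cells, Cdh2 without Cdh1 was seen in 159 and 194 deep hepatocyte-like cells and Cdh1 without Cdh2 in 56 and 63. Among cholangiocyte-like cells the order was turned, with Cdh1 alone in 13 and 12 cells and Cdh2 alone in 5 and 1. Both cadherins were seen in 293 and 110 deep hepatocyte-like cells (41.9% and 19.4%) and in 49 and 6 cholangiocyte-like cells (68.1% and 21.4%).

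The biliary-only genes were all but absent from deep hepatocyte-like cells. Epcam gave 3 UMIs in the 699 deep hepatocyte-like cells of the suffix 1 library (0.202 CPM, 0.0417 to 0.591) and 0 in the suffix 2 library, which allows up to 0.362 CPM. In cholangiocyte-like cells it reached 208 CPM (186 to 233), in 52 of 72 cells, and 534 CPM (449 to 630), in 21 of 28 cells. The ratio was 1031 (350 to 5026) in the suffix 1 library and at least 1473-fold higher in the suffix 2 library, against a floor of 3 UMIs. B-like cells held 6.09 and 3.29 CPM of Epcam, more than deep hepatocyte-like cells in the suffix 1 library, with intervals that did not overlap.

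Krt19, the acidic keratin of ducts, gave 1 and 0 UMIs in deep hepatocyte-like cells, 78.5 CPM (65.0 to 94.0) and 240.1 CPM (185 to 307) in cholangiocyte-like cells and 0 UMIs in B-like cells. Krt7, its basic counterpart, gave 0 UMIs in deep hepatocyte-like and in B-like cells of both libraries. It gave the fewest UMIs of the 4 in cholangiocyte-like cells, at 15.97 CPM (10.2 to 23.8; 24 UMIs) and 72.4 CPM (43.6 to 113; 19 UMIs), at least 79.0-fold and at least 200-fold higher than the limit in deep hepatocyte-like cells. Cldn7, a claudin also found along lateral membranes, gave 6 and 4 UMIs in deep hepatocyte-like cells (0.404 and 0.483 CPM) against 91.2 CPM (76.5 to 108) and 187 CPM (138 to 247) in cholangiocyte-like cells. Its ratio was 226 (101 to 626) and 387 (142 to 1476). Each of the 4 genes was higher in the cholangiocyte-like cells of the suffix 2 library than in those of the suffix 1 library, with intervals that did not overlap.

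The 4 biliary-only genes were seen together in some of the cholangiocyte-like cells. At least 1 was seen in 54 of 72 cholangiocyte-like cells (75.0%) and 22 of 28 (78.6%), at least 2 in 41 (56.9%) and 18 (64.3%), and all 4 in 12 (16.7%) and 6 (21.4%). Of the deep hepatocyte-like cells, 8 (1.14%) and 4 (0.705%) held 1 of the 4, and 0 of 699 and 0 of 567 held 2 or more, with Clopper-Pearson upper limits of 0.526% and 0.648%. B-like cells held at least 1 of the 4 in 5 cells (2.5%) and 2 cells (1.19%), shares whose intervals overlapped those of deep hepatocyte-like cells. Among the 8223 and 3322 hepatocyte-like cells below the depth limit, 0 held 2 or more. These shallow cells had a median of 1154 and 1216 UMIs, at which a pair of these mRNAs would rarely be seen. Cells rich in Alb with at least 2 of the 4 genes fell in the cholangiocyte-like class.

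**Figure D2:**
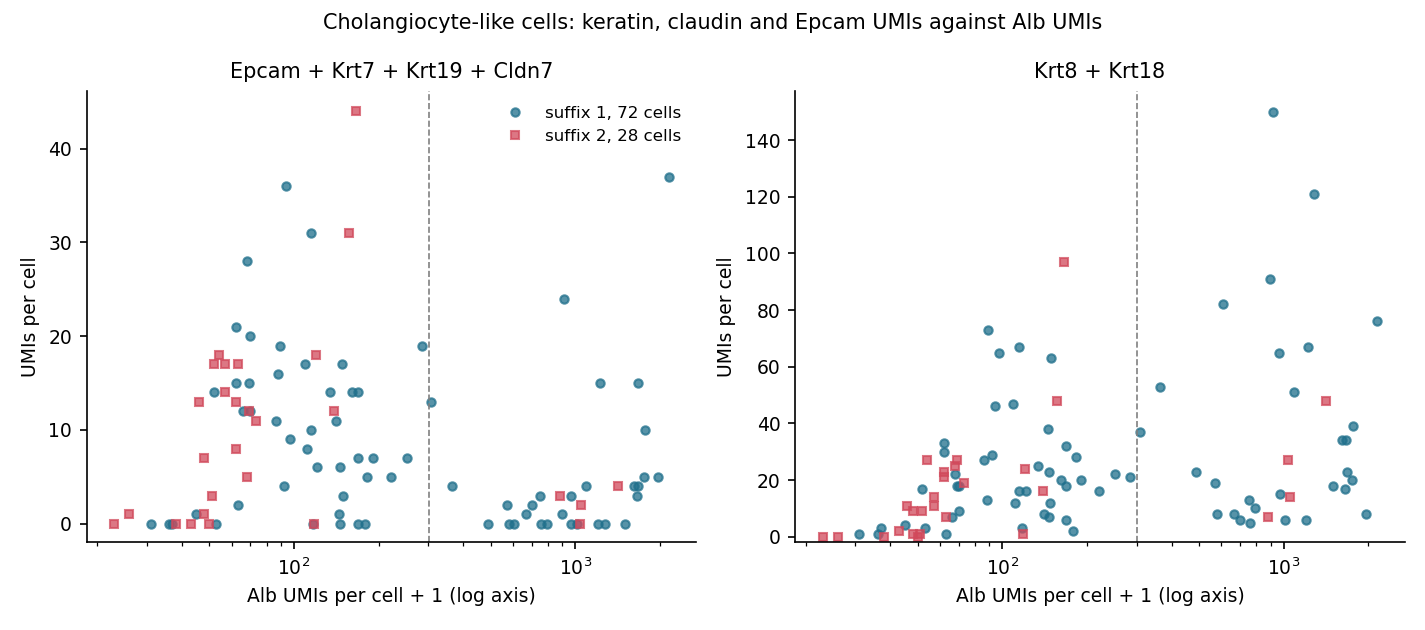
Each point is 1 cholangiocyte-like cell of the suffix 1 or suffix 2 library, with its summed UMIs of Epcam, Krt7, Krt19 and Cldn7 (left) or of Krt8 and Krt18 (right) against its Alb UMIs plus 1 on a log axis, and a dashed line at 300 Alb UMIs. In the left panel, cells with 300 or more Alb UMIs reach 37 summed UMIs of the biliary-only genes in the suffix 1 library and 4 in the suffix 2 library, while cells under 300 Alb UMIs reach 36 and 44.

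The cholangiocyte-like class was not uniform. A limit of 300 Alb UMIs, chosen after the values were seen, left 43 and 24 cells below it (median 9124 and 6173 UMIs) and 29 and 4 at or above it (median 34548 and 23268 UMIs). These 29 and 4 cells held 1036230 of the 1502578 and 98956 of the 262363 UMIs of the class. The CPM of the whole class, and its ratios to hepatocytes, thus rest on them more in the suffix 1 library. Cells below the limit held 493 and 826 CPM of Epcam and 208 and 367 CPM of Krt19, against 80.1 and 50.5 CPM and 20.3 and 30.3 CPM in the cells above it. Krt8 was less unequal, at 1008 and 1034 CPM below the limit and 595 and 576 CPM above it, and so was Krt18, at 1012 and 1371 CPM against 471 and 394 CPM. Cdh2 went the other way in the suffix 2 library, at 42.8 CPM below the limit against 121 CPM above it, and measured 165 against 147 CPM in the suffix 1 library. The cells above the limit thus held levels of the keratins and of Epcam between those of the other cholangiocyte-like cells and those of deep hepatocyte-like cells. Of them, 10 of 29 and 1 of 4 had no UMI of the 4 biliary-only genes, and 13 and 2 had at least 2 of the 4. Doublets were not removed, and whether these cells were doublets, held free RNA or were single cells with both kinds of mRNA was not tested. With the cells below the limit alone, the same 4 genes were biliary only in both libraries, and 5 and 3 genes were shared. Epcam, Krt7 and Krt19 were still higher in the suffix 2 library, at 826 against 493 CPM, 110.2 against 36.5 CPM and 367 against 208 CPM, with intervals that did not overlap, while the intervals of Cldn7, at 299.9 against 199 CPM, did. In the suffix 2 library Cdh1 then passed 10 times and Cdh2 was no longer above the B-like level in bile duct cells. Cluster 28, which is the cholangiocyte-like class and had Epcam among its leading genes although it was left out of the clustering, also held immunoglobulin mRNA in the suffix 1 library, with plasma cell markers at 2240 CPM against 225 CPM in the suffix 2 library.

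Within deep hepatocyte-like cells Cdh2 and the keratin pair varied with the amount of Malat1, a long non-coding RNA that is kept in the nucleus. Cells were divided at 100 and 10000 CPM of Malat1, limits chosen after the values were seen. The ranges were largely separate clusters, with a median Malat1 of 0 CPM in clusters 3 (134 deep cells of the suffix 1 library) and 7 (125 of the suffix 2 library), of 1002 and 668 CPM in clusters 9 and 11, and far above the upper limit in clusters 31 (50 cells) and 24 (53 cells). The low range held 113 and 115 cells with a median mitochondrial share of 0.627% and 4.61%. The middle range held 529 and 391 cells (16.8% and 17.2%), and the high range held 57 and 61 cells (3.98% and 7.91%). Within 2 times of the lower limit lay 75 and 91 cells, and within 2 times of the upper limit 44 and 14 cells.

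Cdh2 had the steepest gradient. It measured 13.4 and 18.8 CPM in the low range, 103 and 78.7 CPM in the middle range and 551 and 561 CPM in the high range. Against the middle range this was 0.130 (0.0693 to 0.224) and 0.238 (0.148 to 0.365) in the low range, and 5.37 (4.75 to 6.06) and 7.13 (6.13 to 8.27) in the high range. Cdh2 mRNA was seen in 55 of the 57 and 51 of the 61 cells of the high range. Cdh1, the other long gene, measured 15.4 CPM in the low range of both libraries, 51.0 and 35.0 CPM in the middle range, and 67.4 and 27.2 CPM in the high range. It was thus low where Malat1 was low, but its ratio in the high range, 1.32 (0.941 to 1.81) and 0.778 (0.408 to 1.36), did not differ from 1 beyond counting error.

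The keratin pair ran the other way. Krt8 measured 375 and 233 CPM in the low range, 181 and 169.7 CPM in the middle range and 92.1 and 87.9 CPM in the high range. Krt18 measured 306 and 385 CPM, 153 and 195 CPM, and 112 and 165 CPM in the same ranges. In the high range of the suffix 1 library Krt8 was at the level of B-like cells, 96.3 CPM (76.2 to 120.0). Neither Krt8 nor Krt18 passed the B-like background in the high range of that library, and in the suffix 2 library Krt18 passed and Krt8 did not. Cldn1 measured 8.23 and 14.5 CPM, 17.4 and 36.0 CPM, and 18.1 and 25.1 CPM in the low, middle and high ranges. Cldn3 had no common order between the libraries, at 24.7 and 66.5 CPM in the low range and 54.3 and 77.4 CPM in the high range. Median depth was 6462 and 7829 UMIs in the low range, 26423 and 15990 in the middle range and 7298 and 6577 in the high range, so depth and mitochondrial share were both highest in the middle range. Alb moved likewise, at 16916 and 31239 CPM in the low range, 38771 and 43875 CPM in the middle range and 22306 and 17536 CPM in the high range, against 13175 and 16196 CPM in B-like cells. The median cell of the suffix 1 library held 9473 CPM of Alb in the low range and 11705 CPM in the high range, below the 13866 CPM of the median B-like cell. The part of these measures in the result was not tested.

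**Figure D3:**
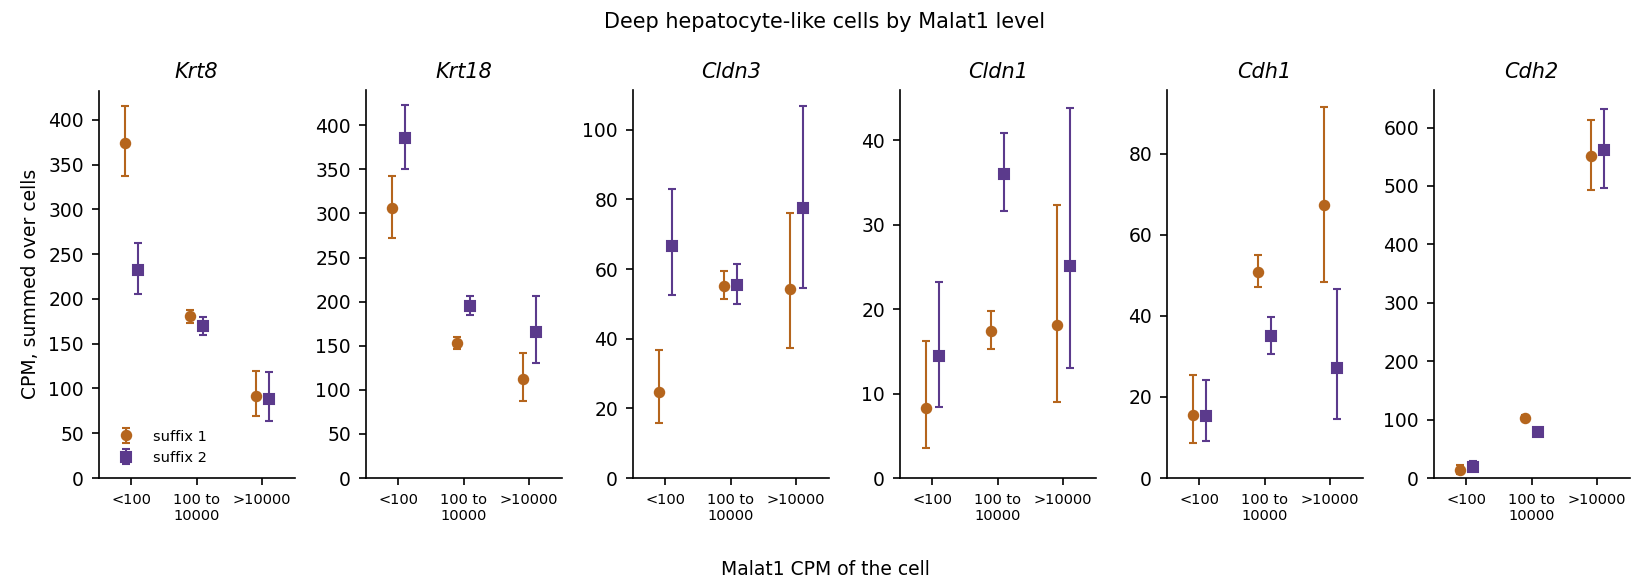
Level of Krt8, Krt18, Cldn3, Cldn1, Cdh1 and Cdh2 (CPM, linear axes from 0 with a scale for each gene, exact Poisson 95% intervals) in deep hepatocyte-like cells with Malat1 under 100, of 100 to 10000 and over 10000 CPM, for the suffix 1 and suffix 2 libraries. Cdh2 climbs from 13.4 and 18.8 to 551 and 561 CPM, while Krt8 drops from 375 and 233 to 92.1 and 87.9 CPM.

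The comparison of hepatocytes with bile duct cells depended on this. Cholangiocyte-like cells were richer in Malat1, with 38 of 72 and 23 of 28 cells over 10000 CPM. When both classes were limited to cells over 10000 CPM, Cdh2 measured 551 and 561 CPM in hepatocyte-like cells against 189 and 50.3 CPM in cholangiocyte-like cells, a ratio of cholangiocyte-like to hepatocyte-like cells of 0.342 (0.269 to 0.432) and 0.0897 (0.0357 to 0.187). In the same cells Cdh1 was 3.83 times (2.67 to 5.59) and 12.95 times (6.92 to 26.0) higher in the cholangiocyte-like cells. Krt8 was 8.79 times (6.63 to 11.8) and 10.3 times (7.22 to 14.99) higher there. Among cells rich in Malat1, each cadherin was therefore higher in a different class, in both libraries. The placements also changed. Krt8 and Krt18 were no longer placed in the suffix 1 library, nor were Krt7 and Cldn1. In the suffix 2 library Krt8 and Cdh1 became biliary only and Cdh2 became hepatocyte only, while Krt18 and Cldn3 stayed shared. Within the middle range, where the suffix 1 library had 34 cholangiocyte-like cells with a median of 824 Alb UMIs, Cdh2 was 1.32 times (1.10 to 1.57) higher in the cholangiocyte-like cells, as over all cells. The suffix 2 library had 5 cholangiocyte-like cells in that range.

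Hepatocytes differ along the lobule from the portal tract to the central vein. Deep hepatocyte-like cells were ordered by a score of periportal over pericentral genes, none of them among the 10, and divided into 3 ranges of 233 and 189 cells each, of which 86 and 60 cells lay within 0.1 of a limit. The ranges are relative, since the median score of the pericentral range was itself positive (1.99 and 2.19 on the log2 scale). Its cells were also shallower than the periportal ones, with a median of 8837 against 29612 UMIs and 144 against 1120 Alb UMIs in the suffix 1 library, and 8101 against 17498 UMIs and 266 against 853 Alb UMIs in the suffix 2 library. The part of depth in the zone values was not tested. Cdh1 was higher in the periportal range, at 54.2 against 31.8 CPM in the suffix 1 library and 40.7 against 16.6 CPM in the suffix 2 library, a ratio of 1.70 (1.36 to 2.15) and 2.46 (1.69 to 3.67). Cdh2 was lower there, at 107 against 142 CPM and 74.7 against 150.5 CPM, a ratio of 0.752 (0.667 to 0.849) and 0.497 (0.420 to 0.587). The cadherins thus ran in opposite directions along the score. The share of cells in the middle Malat1 range also rose from 57.5% to 85.8% and from 49.7% to 84.1% from the pericentral to the periportal range. Within the middle Malat1 range the periportal ratio of Cdh1 was 1.56 (1.23 to 2.00) and 2.34 (1.49 to 3.81), about as over all deep cells. The ratio of Cdh2 was then 1.22 (1.04 to 1.43) and 0.747 (0.597 to 0.939), so that its direction turned in the suffix 1 library.

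Among the other genes, Krt18 was 1.43 times (1.29 to 1.60) higher in the periportal range of the suffix 1 library and 1.03 times (0.913 to 1.16) in the suffix 2 library. Within the middle Malat1 range it was 1.57 times (1.38 to 1.79) and 1.28 times (1.10 to 1.51) higher. Its partner Krt8 had ratios of 1.01 and 1.05 over all deep cells. Cldn3 had ratios of 1.35 (1.12 to 1.65) and 0.977 (0.775 to 1.24), and Cldn1 of 0.970 and 1.22, both of whose intervals held 1.

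**Figure D4:**
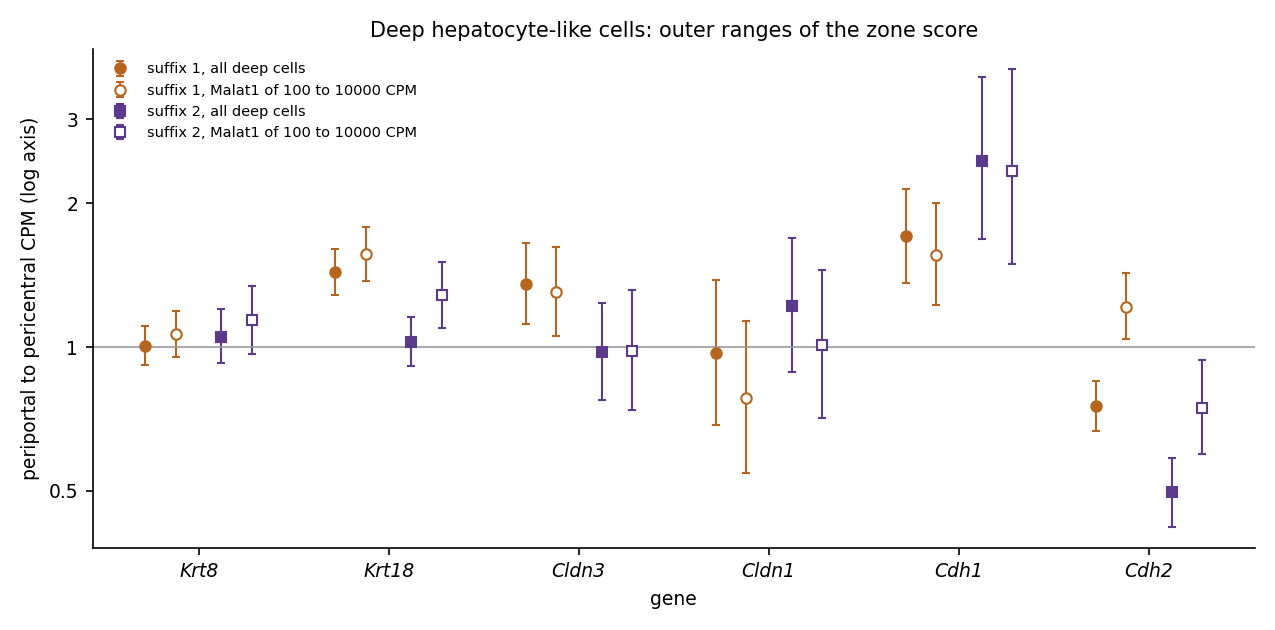
Ratio of CPM in the periportal range to CPM in the pericentral range (log axis, exact 95% intervals, line at 1) for the 6 genes found in deep hepatocyte-like cells of the suffix 1 and suffix 2 libraries, over all deep cells (filled) and over cells with Malat1 of 100 to 10000 CPM (open). Cdh1 is above 1 at all 4 points, from 1.56 to 2.46, while Cdh2 is below 1 at 3 points and at 1.22 for the suffix 1 library in the middle Malat1 range.

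Spp1, the gene of osteopontin that the study followed, is expressed by bile duct cells and by injured hepatocytes. In the 70 and 57 deep hepatocyte-like cells with the highest Spp1 CPM of each library, Spp1 itself measured 1876 and 440.4 CPM, against 246 and 17.0 CPM in the remaining cells, so the sets were unlike between libraries. The Spp1-rich cells had a median of 30707 against 19340 UMIs and 1088 against 659 Alb UMIs in the suffix 1 library, and of 9613 against 12579 UMIs and 392 against 482 Alb UMIs in the suffix 2 library, and the part of depth was not tested. Sox9, a marker of bile duct cells, measured 11.02 against 6.03 CPM and 59.8 against 16.5 CPM in the same sets. Over all deep cells Spp1 measured 475 and 56.4 CPM, with a UMI in 81.7% and 27.5% of cells, against 39.0% and 7.74% of B-like cells. Cholangiocyte-like cells held 12443 and 10318 CPM of Spp1, and the part of bile duct RNA or doublets in the Spp1-rich cells was not tested. In the Spp1-rich cells Krt8 measured 246 and 243 CPM against 181 and 167 CPM in the remaining cells. Krt18 measured 276 and 279 CPM against 142 and 214 CPM, 1.94 times (1.77 to 2.14) and 1.30 times higher. Within the middle Malat1 range the ratio of Krt18 was 2.14 and 1.55. Cdh1 was 1.37 times (1.13 to 1.65) and 1.65 times (1.14 to 2.33) higher in the Spp1-rich cells over all deep cells. Cldn3 had ratios of 1.55 (1.30 to 1.85) and 1.23 (0.908 to 1.63), the second of which held 1, and Cdh2 had ratios of 0.974 and 0.695 (0.518 to 0.917), or 0.966 and 0.960 (0.705 to 1.28) within the middle Malat1 range. Of the biliary-only genes, Cldn7 gave 5 and 3 UMIs in the Spp1-rich cells against 1 and 1 in all the others, a ratio of 30.6 (3.42 to 1445) and 29.3 (2.35 to 1537). These UMIs came from 3 cells in each library, and within the middle Malat1 range the suffix 1 library gave 2 against 1 UMIs, a ratio of 11.8 (0.616 to 699) that held 1, and the suffix 2 library 3 against 1 UMIs, a ratio of 26.6 (2.14 to 1397). Epcam gave 1 against 2 UMIs and Krt19 1 against 0 UMIs in the suffix 1 library, and neither gave any in the suffix 2 library, and Krt7 gave none in either, so no difference was detectable for these 3 genes. Cells with at least 10 UMIs of Glul, a gene of the innermost pericentral hepatocytes, numbered 5 and 1, too few for a comparison.

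Between the libraries, none of the 6 genes found in deep hepatocyte-like cells was 2 times apart there, and the biliary-only genes gave too few UMIs for a ratio. Of 6953 genes with at least 10 CPM in either library, 2.23% were at least 2 times higher in the suffix 1 library and 2.42% in the suffix 2 library. Cldn1 came closest and was 1.92 times (1.61 to 2.29) higher in the suffix 2 library. Krt18 was also higher there, by 1.37 times (1.29 to 1.46), while its partner Krt8 was 1.09 times (1.02 to 1.16) higher in the suffix 1 library. Cdh1 was 1.55 times (1.35 to 1.79) and Cdh2 1.17 times (1.08 to 1.28) higher in the suffix 1 library, and Cldn3 did not differ beyond counting error (0.913, 0.814 to 1.02). Within the middle Malat1 range Cldn1 was 2.07 times (1.72 to 2.49) higher in the suffix 2 library. There Krt18, Cdh1 and Cdh2 kept their direction, while Krt8 no longer differed beyond counting error (1.07, 0.992 to 1.14). With 1 library on each side, genotype, animal and preparation cannot be told apart.

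Some of the 10 mRNAs were found outside the epithelium. Epcam measured 71.4 CPM (47.0 to 104) and 54.0 CPM (36.7 to 76.6) in plasma-like cells, in 11 of 25 and 16 of 40 cells, and 17.6 and 22.6 CPM in plasmacytoid dendritic cell-like cells. Cdh1 measured 344 CPM (230.4 to 494) and 314 CPM (176 to 519) in the 16 and 10 mast or basophil-like cells, above its level in cholangiocyte-like cells in the suffix 1 library and level with it in the suffix 2 library. In plasmacytoid dendritic cell-like cells Cdh1 measured 70.3 CPM (56.1 to 87.0) and 63.2 CPM (47.8 to 82.1), in 50 of 152 and 43 of 123 cells. Cldn1 measured 74.4 CPM (53.6 to 101) and 65.3 CPM (46.2 to 89.6) in conventional dendritic cell-like cells, above its level in deep hepatocyte-like and in cholangiocyte-like cells, with intervals that did not overlap. For each of these, the intervals of both libraries overlapped. In the 4 and 15 mesothelial-like cells, the lining of the liver surface, Krt7 gave 2 and 3 UMIs and Krt19 2 and 1 UMIs, while Epcam and Cldn7 gave 0.

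**Figure D5:**
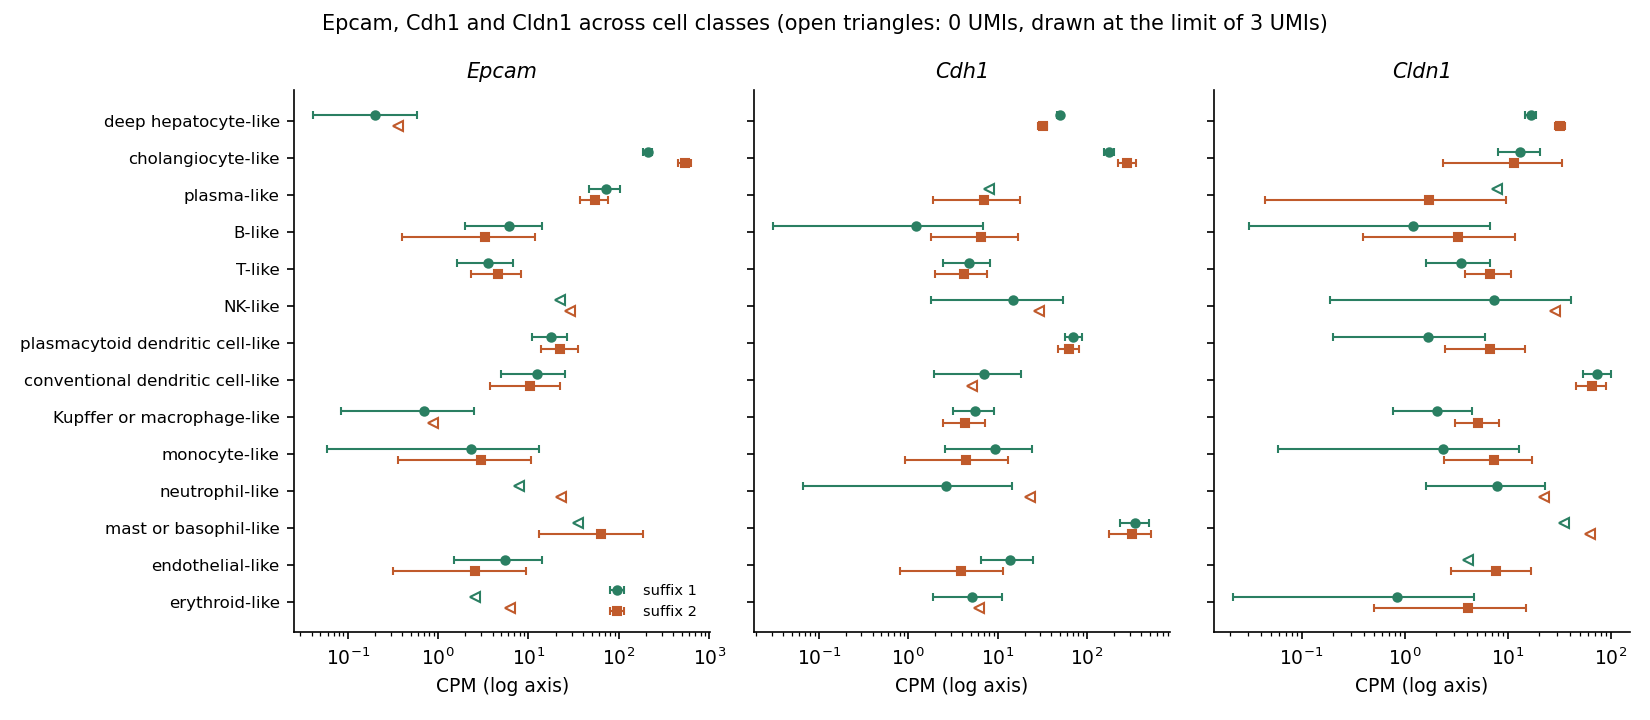
Level of Epcam, Cdh1 and Cldn1 (CPM, log axis, exact Poisson 95% intervals) across named cell classes of the suffix 1 and suffix 2 libraries, with open triangles for 0 UMIs, drawn at the limit of 3 UMIs. Outside the epithelial classes, Epcam is at 71.4 and 54.0 CPM in plasma-like cells, Cdh1 at 344 and 314 CPM in mast or basophil-like cells and Cldn1 at 74.4 and 65.3 CPM in conventional dendritic cell-like cells.

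Likeness of pattern was measured as Pearson's r of log2(CPM + 10) over 28 points, each 1 class in 1 library, which share libraries. It is a description and carries no test. Krt8 was most like Krt18 (r = 0.956) and then Akr1c19 (0.952), and Cldn3 was most like Krt18 (0.950) and Clu (0.946). Krt19 was most like Anxa13 (0.997) and Cldn7 most like Dab1 (0.998), and Krt19 and Cldn7 had r = 0.992 with each other. Krt19 and Cldn7 were placed as biliary only, so these values rest mainly on the cholangiocyte-like points. Epcam, with its mRNA in plasma-like cells, was less like Krt19 (0.824) and was most like Plcd3 (0.930). Cdh1 was most like Ptprf (0.897) and Cdh2 most like 9030622O22Rik (0.937), and the cadherins had r = 0.590 with each other. Cldn1 was most like Nectin1 (0.814). Krt7, with 54 UMIs in the kept cells, was too rare for this measure.

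The same placement was applied to a list of 68 further keratin, junction and epithelial genes, of which 67 were in the table. In the suffix 1 library 22 were shared and 11 biliary only, and in the suffix 2 library 18 and 15. Of all genes with at least 10 UMIs, 9.51% and 5.55% were shared and 3.79% and 3.36% biliary only. The list had no such UMI limit and was chosen as epithelial genes, so these shares are background. The 18 genes shared in both libraries included the tight junction genes Ocln, Tjp1 and Cgn, the desmosome genes Dsp and Pkp2, and the gap junction genes Gjb1 and Gjb2. The 9 that were biliary only in both libraries were Krt23, Cldn6, Cdh6, Marveld3, Elf3, Ehf, Grhl2, Itgb4 and Spint1, of which Elf3, Ehf and Grhl2 encode transcription factors of epithelia. Only Dsg2 was biliary rich, and in the suffix 2 library alone. A further 24 were placed in neither class in both libraries, which means not above B-like cells and not absence. Ezr among them measured 69.9 and 68.6 CPM in cholangiocyte-like cells, against 160.9 and 164.6 CPM in B-like cells.

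Gjb1, the main hepatocyte connexin, gave the most UMIs of the list in deep hepatocyte-like cells, at 209.8 and 227 CPM against 163 and 160.1 CPM in cholangiocyte-like cells. Gjb2 measured 208 and 157 CPM against 71.9 and 83.9 CPM, and so was lower in the bile duct cells. Dsg2, a desmosomal cadherin, ran the other way, at 71.8 and 53.1 CPM against 424 and 564 CPM. Ctnnd1, the p120 catenin that holds cadherins at the membrane, measured 53.3 and 53.4 CPM against 190.3 and 316 CPM. Pard3, a polarity gene, measured 89.5 and 95.6 CPM against 204 and 263 CPM, and Perp, a desmosome protein, 84.3 and 81.6 CPM against 73.2 and 80.0 CPM. Ctnnb1, the catenin that binds the cadherin tail, measured 174 and 259 CPM in cholangiocyte-like cells and 85.5 and 74.7 CPM in deep hepatocyte-like cells, near the 78.0 and 88.9 CPM of B-like cells, and was left unplaced.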

How the data were processed

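The authors deposited whole-number UMI counts per gene and barcode for both libraries in 1 table. The submitters' processing notes name Cell Ranger 7.1.0, STAR 2.7.2a, bcl2fastq 2.20.0 and mm10, and the sources used here do not give the setting for intronic reads. Kept cells were scaled to 10000 counts and log transformed. They were clustered (scanpy 1.11.5, igraph 0.11.9, scikit-learn 1.9.0, 2000 variable genes without the 10 genes described, 30 components, 15 neighbours, Leiden resolution 1). Of 40 clusters, 33 were named from marker lists and 7, with 897 cells, were not. These names were rebuilt and may differ from the study's. No doublet caller was used, so doublets remain. Sums of UMIs over a class carry exact Poisson 95% intervals, shares Clopper-Pearson intervals and ratios exact conditional intervals (Python 3.11.15, numpy 2.4.6, scipy 1.17.1, figures with matplotlib 3.10.9). For a fold, a count of 0 was set to 3 UMIs. Cells were thinned to 1000 UMIs for shares. Only the placement rule and the interval of a ratio were tried on simulated counts. The simulated levels lay far from the limits, so marginal calls were not tested. Positions are from GENCODE M21.

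The genes, lists and limits were chosen with earlier results of these data known. All 10 genes are named. Of the further epithelial genes, those with the 4 highest levels in each epithelial class are named with values. For likeness, the leading genes of each gene with at least 100 UMIs are named.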

Additional observations from a re-analysis of the deposited data

Results flagged for a closer look

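Barcodes over the limit of 25% mitochondrial UMIs entered the comparisons only in alternatives with a wider limit or without one. In these 5675 and 8886 droplets 3 of the 10 genes in each library lay above its B-like cells, with intervals that did not overlap, against 4.88% of 12198 and 3.39% of 12357 genes with at least 10 UMIs there. Cdh2 and Cldn3 did so in both libraries. Cdh2 measured 54.3 CPM in the suffix 1 library and 43.8 CPM in the suffix 2 library, against 10.97 and 9.87 CPM in B-like cells. Cldn3 measured 36.2 and 50.1 CPM against 20.7 and 28.0 CPM. Cdh1 was above the background in the suffix 1 library, at 20.9 against 1.22 CPM, and Cldn1 in the suffix 2 library, at 15.8 against 3.29 CPM.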

How the results depend on the processing

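With 17 alternatives for each count, the number of biliary-only genes stayed between 3 and 5 in the suffix 1 library and between 4 and 6 in the suffix 2 library, though its members changed, and of 102 recomputed counts 12 moved by over 1.5 times. With a mitochondrial limit of 10%, which left 146 and 185 deep hepatocyte-like cells, the shared genes fell to 2 (Krt8, Krt18) in the suffix 1 library and 3 (with Cldn3) in the suffix 2 library. Cdh1 then became biliary only in both libraries and Cdh2 in the suffix 1 library, where Krt7 lost that call. With 5 times in place of 10 times, Cldn3 became biliary rich in the suffix 1 library (1 gene) and Cldn3 and Cdh1 in the suffix 2 library (2 genes, with 3 shared). Without the cholangiocyte-like cells whose Alb CPM reached the lower quartile of deep hepatocyte-like cells, 3 genes were shared and 1, Cdh1, was biliary rich in the suffix 2 library, and without a filter on cells 1 gene, Cdh1, was biliary rich there. Among alternatives chosen after the data were seen, cholangiocyte-like cells under 300 Alb UMIs gave 3 shared genes and 1 biliary rich in the suffix 2 library. Both classes limited to Malat1 over 10000 CPM gave 3 (Cldn3, Cdh1, Cdh2) and 2 (Krt18, Cldn3) shared genes, Krt8 and Cdh1 became biliary only in the suffix 2 library, and the log2 ratio of Cdh2 in the suffix 1 library turned from 0.40 to -1.55. The log2 ratio of periportal to pericentral Cdh2 there turned from -0.41 to 0.28 in the middle Malat1 range. Of 320 recomputed log2 ratios between the classes, 245 moved by less than counting error. No paired analysis was possible because no label ties a library to a sample. In the bile duct cells, Krt7 rests on 24 and 19 UMIs and Cldn1 on 20 and 3 UMIs.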
